A study of Drosophila melanogaster with 8 samples.

Results

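Reads that retained C at 2 or more cytosines after bisulfite treatment were examined in amplicons of the long terminal repeat (LTR) of Invader 4, a retrotransposon of Drosophila melanogaster. They were selected by their own base calls, as reads with C at 2 or more of the 27 cytosines of the amplicon. Of 16435 reads, 1251 met the rule, 1076 of them with 2 C, 153 with 3, 18 with 4 and 4 with 5. They were compared with the 4500 reads that had C at exactly 1 cytosine. Another 10683 reads had no C, and 1 read with C at all 27 cytosines was set aside. Just inside the threshold lay the 1076 reads with 2 C, and just outside it the 4500 reads with 1 C.

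The study set wild type flies of the strain w1118 beside Dnmt2 mutant flies, each in standard culture, after heat shock, after 1 day of recovery and after 3 days of recovery. Flies were heat-shocked at 37 °C for 1 h in a water bath, and those of the heat shock samples then spent 5 h at room temperature before genomic DNA was taken. All groups were whole bodies of adults of mixed sex, 3 days after hatching. Each group had 1 library of 1505 to 2670 reads, so no group had replicates. The Dnmt2 allele is not given in the sources used here, and the amplicon holds no part of the Dnmt2 gene, so the genotype labels were not checked.

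Bisulfite turns unmethylated cytosine into uracil, which is read as T after PCR, while 5-methylcytosine stays C. A cytosine that escapes conversion is also read as C, so C in 1 read does not tell methylation from incomplete conversion. Incomplete conversion of a molecule and methylation spread over a stretch of DNA would both leave several C in the same read, which is why reads with several C are looked at apart. Dnmt2 belongs by sequence to the DNA cytosine-5 methyltransferase family and is known as a methyltransferase of transfer RNA. Flies have no other member of that family. Invader 4 belongs to the gypsy group of LTR retrotransposons, and its many genomic copies differ in sequence, so a read can differ from the reference at any base.

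Positions are counted from 1 at the 5′ end of the 149-base amplicon. Of its 27 cytosines 8 were CpG, 10 CpA, 4 CpC and 5 CpT, and outside CpG 9 were CHG and 10 CHH, where H stands for A, C or T. The cytosines on which the results below turn are shown with the 4 bases on either side, from the deposited reference, 5′ to 3′, with the cytosine in a capital letter. C114 and C112 held the most C in the selected reads. C48 lay in 5 of the 10 most frequent pairs named below, a count that depends on a tie. Of these pairs C62 with C130 had the highest ratio of observed to expected reads. The pair C45 with C62 was chosen after its values were seen.
C45: gcctCtgca
C48: tctgCagct
C62: aggtCcgat
C112: ggcaCacgc
C114: cacaCgcca
C130: tagcCatta

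The library numbers in the names of the deposited files divide the 8 libraries into 2 sets of 4 that cut across genotype. The sets also differ in common base differences outside cytosines. Of 28 base differences from the reference at A, G or T carried by 0.5% or more of all reads, 10 separated the sets without overlap. The first set holds the heat shock and 3 days libraries of wild type and the standard and 1 day libraries of the Dnmt2 mutant, and the second set holds the other 4. Each comparison of genotypes at a stage is therefore also a comparison of sets, and so are heat shock and 3 days against standard. In these comparisons the condition and the set cannot be told apart. A swap of wild type and Dnmt2 mutant in the heat shock pair and the 3 days pair of libraries, or in the 2 remaining pairs, would make each set a single genotype. Whether libraries were swapped or prepared in 2 runs was not tested, so genotypes are named here as labelled. The comparison of 1 day with standard lies within a set for both genotypes.

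Reads with several C made up a small part of every library. In wild type libraries their share was 6.74% at the standard stage (180 of 2670 reads, 95% Wilson interval 5.85% to 7.76%) and 9.55% after heat shock (178 of 1864, 8.30% to 11%). It was 8.72% after 1 day of recovery (205 of 2352, 7.64% to 9.92%) and 9.50% after 3 days (153 of 1611, 8.16% to 11%). The standard library was the lowest of the wild type libraries. In Dnmt2 mutant libraries the share was 7.24% at the standard stage (109 of 1505, 6.04% to 8.66%) and 6.31% after heat shock (130 of 2060, 5.34% to 7.44%). It was 7.68% after 1 day (161 of 2097, 6.61% to 8.90%) and 5.93% after 3 days (135 of 2275, 5.04% to 6.98%). The genotypes overlapped, since the wild type standard library lay below the Dnmt2 mutant libraries of the standard and 1 day stages. The mean was 7.71% ± 1.41 (SD, n = 8 libraries), with 8.63% ± 1.31 over the wild type and 6.79% ± 0.807 over the Dnmt2 mutant libraries (SD, n = 4 each). Reads carry no molecular identifiers, so intervals cover counting error only.

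**Figure D1:**
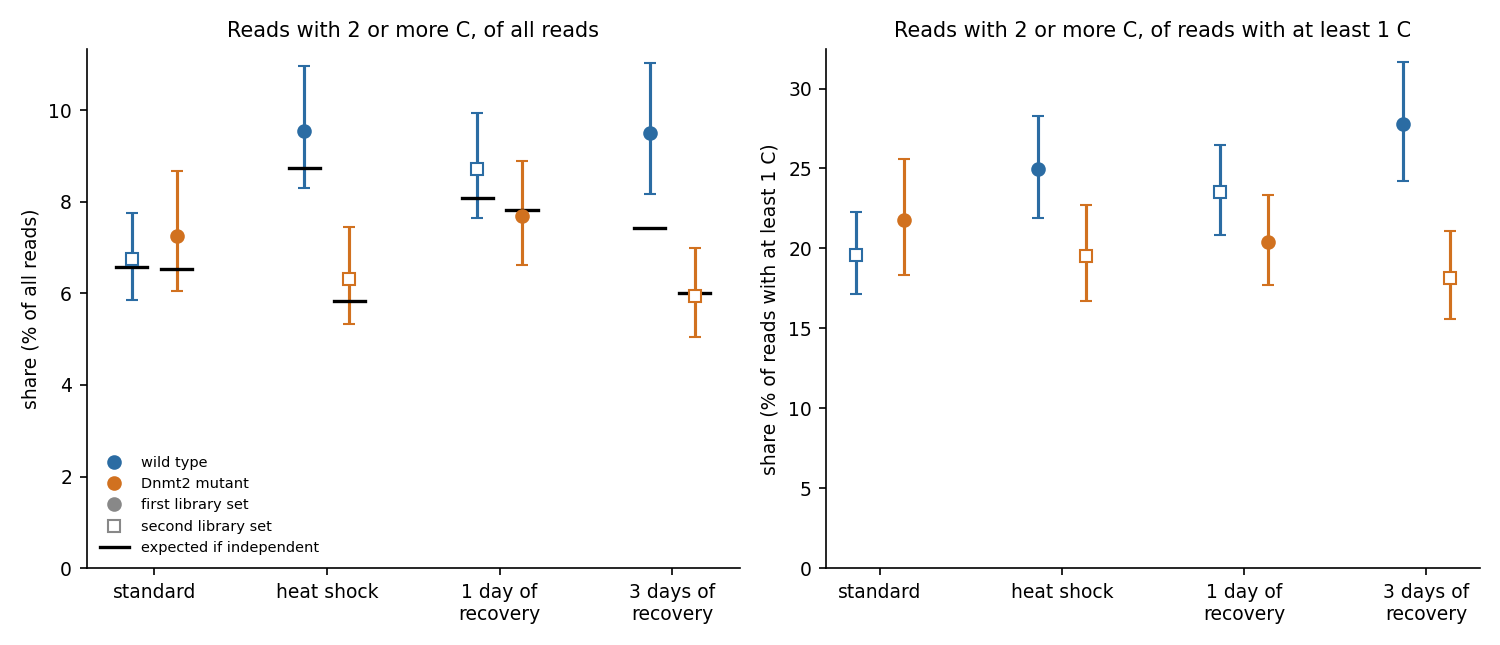
Share of reads with C at 2 or more cytosines by stage, as percent of all reads (left) and of reads with at least 1 C (right). Points are single libraries with 95% Wilson intervals, filled circles mark the first library set and open squares the second, and black bars give the share expected if cytosines kept C independently. On the left the wild type libraries lie at 6.74% to 9.55% and the Dnmt2 mutant libraries at 5.93% to 7.68%.

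The genotype comparison asks whether the reads with several C depend on Dnmt2. After heat shock the share in the library labelled Dnmt2 mutant minus that in wild type was -3.24 percentage points (95% Newcombe interval -4.96 to -1.55, Fisher's exact test on reads, adjusted p = 0.000879). After 3 days the difference was -3.56 points (-5.34 to -1.87, adjusted Fisher exact p = 0.000383). At the standard stage it was 0.501 points (-1.07 to 2.18, adjusted Fisher exact p = 0.631), and after 1 day -1.04 points (-2.65 to 0.586, adjusted Fisher exact p = 0.327). The Dnmt2 mutant libraries after heat shock and 3 days were thus the lower of their pair beyond counting error, and those of the standard and 1 day stages did not pass. The share expected if cytosines kept C independently, at levels that include the C of the selected reads, differed as well. Expected shares were 8.73% in wild type and 5.84% in the Dnmt2 mutant after heat shock, and 7.43% and 6.01% after 3 days. At standard they were 6.58% and 6.52%, and after 1 day 8.09% and 7.81%. P-values were adjusted over 10 comparisons, 4 of genotypes and 6 of stages, and each compares the reads of 2 libraries, not the conditions. After heat shock and 3 days the call was lost among reads that matched the reference at all bases outside cytosines (-3.52 and -3.31 points, both with adjusted Fisher exact p = 0.0514), with identical reads counted once (-4.05 and -4.96 points, both 0.114), and for 3 or more C (-0.823 points, 0.0651, and -0.187 points, 0.645).

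Over the 4 stages the mean difference was -1.83 ± 1.92 points (SD, n = 4 stages), with the Dnmt2 mutant lower in 3 stages (exact permutation p = 0.25, two-sided, smallest possible 0.125). Within the first library set the difference of genotype means was -2.06 points and within the second -1.61 points, each from 4 libraries in which genotype goes with stage. The library of the first set was also the higher in 3 of 4 stages, by a mean of 1.57 ± 2.21 points (SD, n = 4 stages). With the labels of the heat shock and 3 days pairs swapped, an alternative chosen after the data were seen, the genotype difference becomes this difference of the sets, 1.57 points with the Dnmt2 mutant higher (exact permutation p = 0.375). With the labels of the other pairs swapped it becomes -1.57 points.

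The stage comparison asks whether heat shock changed the share and whether a change lasted. In wild type the share was 2.81 points above standard after heat shock (1.20 to 4.48, adjusted Fisher exact p = 0.00210) and 2.76 points above it after 3 days (1.08 to 4.53, adjusted Fisher exact p = 0.00359). The difference after 1 day, which lies within the second set, was 1.97 points (0.497 to 3.48, adjusted Fisher exact p = 0.0184). All 3 later wild type libraries were above the standard library beyond counting error. Among reads that matched the reference outside cytosines these differences were 2.82 (0.0628), 2.87 (0.0628) and 1.66 points (adjusted Fisher exact p = 0.308) for heat shock, 3 days and 1 day, and none passed. None passed either for 3 or more C (adjusted Fisher exact p = 0.0651, 0.160 and 0.160) or with identical reads counted once (0.114, 0.114 and 0.519). In Dnmt2 mutant libraries no stage passed, with -0.932 points after heat shock (-2.65 to 0.721, adjusted Fisher exact p = 0.348), 0.435 after 1 day (-1.34 to 2.15, 0.654) and -1.31 after 3 days (-2.99 to 0.287, 0.2). The change from standard differed between genotypes by -3.74 points after heat shock (Zelen's exact test of equal odds ratios, adjusted p = 0.00405) and by -4.06 points after 3 days (adjusted exact p = 0.00358). After 1 day it differed by -1.54 points (adjusted exact p = 0.208). Among reads that matched the reference outside cytosines the differences after heat shock and 3 days were -3.38 and -3.17 points (both with adjusted exact p = 0.172), and with identical reads counted once they were -3.08 and -3.99 (both 0.432). For 3 or more C that after 3 days was -0.737 points (adjusted exact p = 0.126). As tests on reads of 4 single libraries, they compare those libraries, not the conditions.

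Counting the selected reads against reads with at least 1 C removes the number of fully converted reads from the share. The result still depends on how often cytosines kept C, from 1.49% of calls (Dnmt2 mutant heat shock) to 1.87% (wild type heat shock). No expected value was computed for this share. In wild type libraries 19.6%, 25%, 23.5% and 27.8% of reads with C had 2 or more at standard, heat shock, 1 day and 3 days. The Dnmt2 mutant libraries had 21.8%, 19.5%, 20.4% and 18.2% at the same stages. The wild type 3 days library was the highest and the Dnmt2 mutant 3 days library the lowest of the 8. The genotypes differed by -9.60 points after 3 days (-14.3 to -4.97, adjusted Fisher exact p = 0.000485) and by -5.42 points after heat shock (-9.77 to -1.01, adjusted Fisher exact p = 0.0417). Differences at standard (2.15 points, adjusted Fisher exact p = 0.419) and after 1 day (-3.13 points, 0.198) did not pass. The mean over stages was -4.00 ± 4.90 points (SD, n = 4 stages, exact permutation p = 0.25), and it was -5.29 within the first and -2.71 within the second set. In wild type the rises to heat shock (5.36 points, adjusted Fisher exact p = 0.0375) and 3 days (8.16 points, 0.00195) passed and that to 1 day (3.93 points, 0.0884) did not. No Dnmt2 mutant stage passed, with differences from -3.59 to -1.35 points. The genotype calls after heat shock and 3 days were lost for 3 or more C (-1.82 points, adjusted Fisher exact p = 0.181, and -0.400 points, 0.757) and with identical reads counted once (-3.77, 0.684, and -6.70, 0.281). That after heat shock was also lost among reads that matched the reference outside cytosines (-5.96 points, adjusted Fisher exact p = 0.205). The wild type rises to heat shock and 3 days were lost under the same 3 settings, at adjusted Fisher exact p = 0.181 for both, 0.684 and 0.281, and 0.350 and 0.0697. The change from standard differed between genotypes by -7.56 points after heat shock (Zelen's exact test, adjusted p = 0.0335), -5.28 after 1 day (0.0841) and -11.7 points after 3 days (0.00137). After heat shock and 3 days these were -1.93 and -4.86 points with identical reads counted once (adjusted exact p = 1 and 0.994) and -6.44 and -10.2 among reads that matched the reference (0.282 and 0.104). For 3 or more C that after 3 days was -2.12 (adjusted exact p = 0.11), and for reads called at all 27 cytosines that after heat shock was -8.16 (0.0715).

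The number of reads with several C was close to what independent retention at each cytosine would give. From the level of each cytosine in each library and the cytosines called in each read, 1167 reads with 2 or more C would be expected, against 1251 observed, a ratio of 1.07. The ratio was above 1 in 6 of 8 libraries. Reads with exactly 1 C were fewer than expected, 4500 against 4696 (ratio 0.958), with 1 library above its expectation. For 3 or more C the numbers were 175 observed and 156 expected (ratio 1.12, above 1 in 5 of 8 libraries), and for 4 or more C 22 reads were observed. With exactly 4 C there were 18 reads against 14.1 expected (ratio 1.28), and with 5 C 4 reads against 1.09 (ratio 3.67). The excess was thus small for reads with 2 C (ratio 1.06) and 3 C (1.09). For 4 and 5 C the ratios were larger and rest on few reads. Since the reads were chosen by the same calls, these ratios are a description, with no test.

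By library the ratio of observed to expected reads was 1.03, 1.09, 1.08 and 1.28 in wild type at standard, heat shock, 1 day and 3 days. It was 1.11, 1.08, 0.983 and 0.987 in the Dnmt2 mutant at the same stages. The wild type 3 days library stood above the others, with 153 reads where 120 were expected. Reads with several C held 33.0% to 45.2% of all C calls of a library, and the wild type 3 days library had the highest of these shares.

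Pairs of cytosines that kept C together were spread over almost the whole amplicon. Of 351 possible pairs 344 occurred in at least 1 read, at a median of 4 reads over the 8 libraries. Summed over pairs there were 1683 observed pairs where the product of the cytosine levels in each library gave 1530, a ratio of 1.10. The ratio per library was 1.11 ± 0.0999 (SD, n = 8 libraries) and above 1 in 7 of 8. Single pairs had few reads, and 27 pairs (7.69%) reached 2 times their expected reads. With identical reads counted once, which raises the level of every cytosine by removing fully converted reads, no pair reached 2 times its expectation, and the summed ratio was 0.869.

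The 10 most frequent pairs mostly joined cytosines that also retained most C singly. C48 and C114, 66 bases apart, kept C together in 15 reads against 8.40 expected, with 2, 3, 2 and 4 reads in wild type and 1 in each Dnmt2 mutant library. C112 and C130, 18 bases apart, had 14 reads against 8.98 expected, 5 of them in the wild type 1 day library. Pairs with 13 reads were C62 with C130 (3.88 expected), C39 with C43 (5.18), C48 with C110 (5.78), C48 with C117 (6.53), C43 with C112 (7.04) and C110 with C112 (7.65). The pairs C48 with C102 and C48 with C75 had 12 reads each, against 4.77 and 5.51 expected, and 4 pairs tied at that number. C48 took part in 5 of these 10 pairs, against 26 of all 351. A CpA cytosine was in all 10, and in 215 of all 351 pairs (61.3%). Of the 4 pairs tied at 12 reads, the 2 with the higher ratios of observed to expected reads were named. The other 2 were C24 with C114, both CpG, and C75 with C112. Neither held C48, so both counts depend on how the tie was broken. Ranking by reads favours cytosines that keep C often. Over its 26 pairs C48 was at 1.17 times the expected number, near C112 (1.18), C39 (1.16) and C102 (1.16). C62 (1.53), C27 (1.29) and C45 (1.26) were higher. The pair C48 and C114 and the pair C48 and C102 were present in all 8 libraries.

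Several frequent pairs rested largely on 1 library. C48 and C75 had 7 of their 12 reads in the wild type heat shock library, and C48 and C110 had 6 of 13 in the Dnmt2 mutant 3 days library. Among pairs chosen after their values were seen, C45 and C62 had 11 reads against 2.38 expected (ratio 4.62). These were 5 identical reads in wild type 1 day, 5 in the Dnmt2 mutant standard library and 1 in wild type heat shock, so they held 3 distinct reads. The 5 reads of the Dnmt2 mutant standard library also had C at C130, and they made up most of the 6 reads with C62 and C130 in that library. C62 and C130 had 8 distinct reads in all, and C48 and C114 had 13. The expected numbers given for pairs are for all reads and do not apply to distinct reads.

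**Figure D2:**
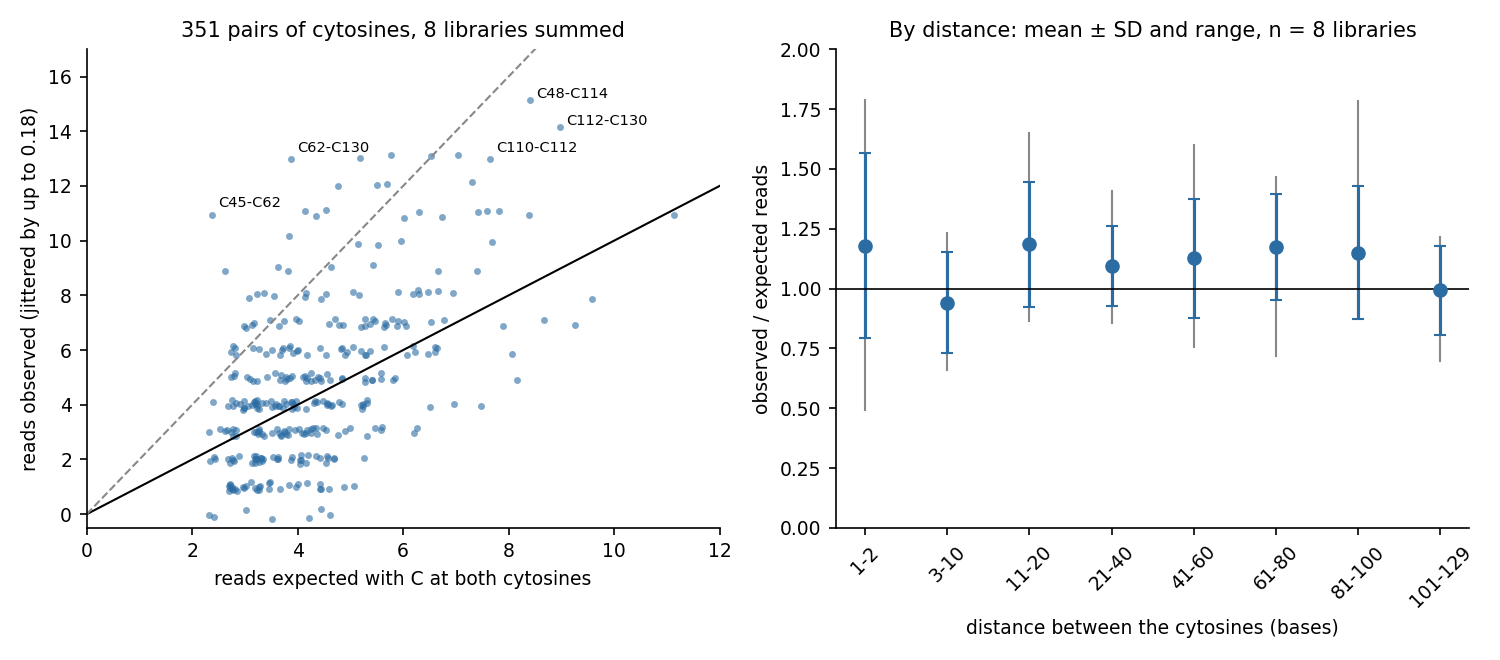
Left, each of the 351 pairs of cytosines by the reads expected to hold C at both (horizontal) and the reads observed (vertical, jittered), summed over 8 libraries, with a solid line at equality and a dashed line at 2 times the expectation. Right, observed over expected reads by distance between the cytosines, as mean with SD (bars) and range (thin lines) over 8 libraries. The means lie between 0.941 and 1.19 with no steady trend with distance.

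Cytosines that kept C in the same read were no closer to each other than their levels predict. In the 1076 reads with 2 C the mean distance was 48.1 bases against 47.8 expected, and the median was 42 bases in both. Library means ranged from 43.0 to 51.5 bases. Of these reads 6.32% held C at neighbouring cytosines of the amplicon, where 7.56% were expected. By distance the summed ratio of observed to expected reads was 1.17 at 1 to 2 bases, 0.928 at 3 to 10 and 1.17 at 11 to 20 bases. It was 1.09 at 21 to 40, 1.11 at 41 to 60, 1.18 at 61 to 80, 1.12 at 81 to 100 and 0.992 at 101 to 129 bases. No distance stood apart beyond the spread between libraries, which for 1 to 2 bases ran from 0.491 to 1.79.

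In reads with 3 or more C the retained cytosines were spread out as well. They spanned a median of 78 bases, from 9 to 119. Of the 175 reads, 132 had no C at neighbouring cytosines and 1 had C at 3 neighbouring cytosines in a row. No expected span or number of neighbours was computed for these reads, so the values are a description. The 4 reads with 5 C came from wild type libraries, 3 from 1 day and 1 from the standard stage. They held C at C11, C19, C114, C129 and C130, at C21, C48, C110, C112 and C114, at C33, C42, C45, C63 and C116, and at C11, C43, C63, C112 and C114. All 4 spanned 83 to 119 bases. The 18 reads with 4 C came from 7 libraries, and 3 sets of cytosines among them occurred as 2 identical reads.

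The sequence context of C in the selected reads was close to that in reads with 1 C. CpA cytosines held 44.4% of C in reads with several C and 42.4% in reads with 1 C, higher in 6 of 8 libraries. CpC held 13.1% and 11.6% (higher in 5 libraries), CpG 27.6% and 29.9% (higher in 3), and CpT 14.9% and 16% (higher in 3). CHG cytosines held 31.7% and 30.2%, and CHH cytosines 40.7% and 39.8%. The ranges over libraries overlapped in every context, and no context moved in the same direction in all 8 libraries. CpG, the context of DNA methylation in most animals, was the lower of the pair in 5 of 8 libraries.

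Pairs within the same context kept C together slightly more often than mixed pairs. The ratio of observed to expected reads was 1.15 for 89 pairs of the same context and 1.08 for 262 mixed pairs, and the library SD were 0.175 and 0.139. Pairs of CpA cytosines had a ratio of 1.23 (328 observed pairs, above 1 in 7 of 8 libraries, library range 0.902 to 1.79). Pairs of CpC with CpT had 1.32 (80 observed pairs, above 1 in 7 of 8). Of these 80, 11 were C45 with C62, against 2.38 expected, and those 11 held 3 distinct reads. Pairs of CpG cytosines had 1.04 (121 observed pairs) and pairs of CpT cytosines 0.742 (23 observed pairs, above 1 in 1 of 8 libraries). A read with 3 or more C counts once for each of its pairs. These ratios have no test, and the library ranges of same and mixed pairs overlap, 0.990 to 1.54 and 0.925 to 1.29.

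By position, C114, C112 and C130 held the largest shares of C in both classes of reads, in that order. C114, a CpG cytosine, held 6.07% of C in the selected reads and 6.02% in reads with 1 C. C112 (CpA) held 5.88% and 5.56%, C130 (CpA) 4.85% and 4.96%, C48 (CpA) 4.62% and 4.18%, and C117 (CpA) 4.44% and 4.89%. C39 (CpA) equalled C117 in selected reads with 4.44% (4.02% in reads with 1 C), and C33 (CpA), the fifth in reads with 1 C with 4.38%, held 4.4% in selected reads. For C114, C112, C130, C48 and C117 the differences were below 0.5 percentage points, small beside the library ranges, which for C114 were 4.33% to 7.22% and 5.42% to 6.63%.

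C62, a CpC cytosine, departed most from this pattern. It held 3.26% of C in reads with several C (88 reads) and 2.09% in reads with 1 C (94 reads), higher in 7 of 8 libraries. Of all its C calls 48.4% lay in reads with several C, the highest share of the 27 cytosines. Pairs with C62 were at 1.53 times their expected number (120 against 78.6), where a read with 3 or more C counts once for each pair. With identical reads counted once these pairs numbered 92, but the 78.6 expected is for all reads and does not apply to that count. No matching expectation was computed for C62. Over all pairs that count gave 1489 observed against 1714 expected, a ratio of 0.869. The other large differences were 0.692 points at C27, -0.669 at C21, -0.610 at C1 and -0.596 at C35. C35 was lower in reads with several C in all 8 libraries, C1 in 7 of 8, and C67 had the same difference as C35 but was lower in 5 of 8. These cytosines were chosen for these values, which are a description.

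**Figure D3:**
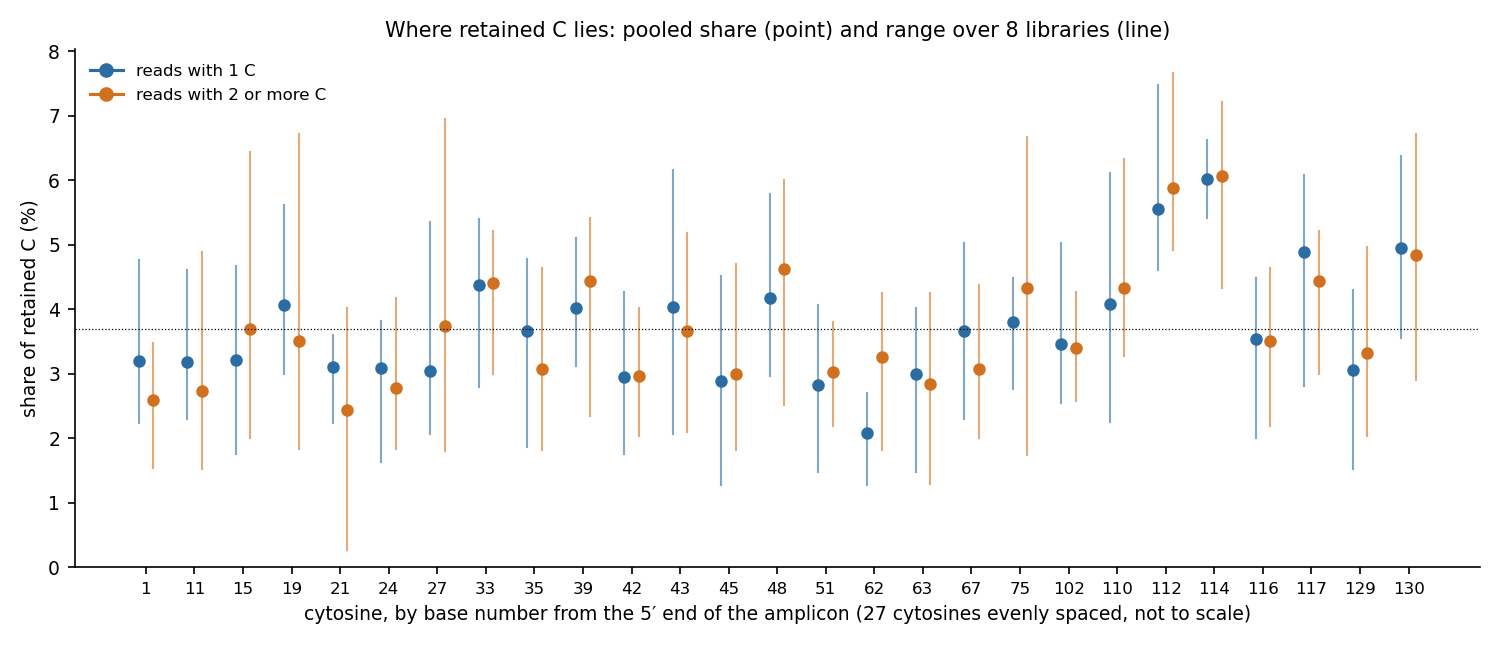
Share of retained C by cytosine, numbered from the 5′ end, in reads with 1 C (blue) and in reads with 2 or more C (orange). Points are pooled shares in percent, lines the range over 8 libraries, and the dotted line an equal share for all 27 cytosines. The profiles run together, with both classes highest at C114 (6.07% and 6.02%) and the widest pooled gap at C62 (3.26% and 2.09%).

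Most of the selected reads were single occurrences. Within their library 20.5% of them had an identical read over the whole alignment, against 57.7% of reads with 1 C and 77.1% of reads without C. The alignment includes the cytosines used by the rule, and more C allow more different sets of them. Combinations of a library and a set numbered 8 without C and 216 with 1 C. The difference between the classes is therefore tied to the rule. The 1251 reads were 1108 distinct reads. They held 947 combinations of a library and a set of cytosines, of which 735 were seen in 1 read and 16 in 4 or more. Over all libraries there were 466 different sets of cytosines, and 243 occurred in 2 or more libraries. Among the repeated sets, C48 with C75 had 7 reads in wild type heat shock, of which 5 were identical. The set C35, C48 and C117 had 4 identical reads in the Dnmt2 mutant 1 day library and occurred in no other library. Copies of a molecule and separate molecules with the same sequence cannot be told apart here. Distinct selected reads per 100 deposited reads were 6.03, 8.21, 7.48 and 8.69 in wild type and 6.45, 5.97, 6.77 and 5.10 in Dnmt2 mutant libraries, in the order standard, heat shock, 1 day and 3 days. On that count the mean genotype difference was -1.53 per 100 reads (exact permutation p = 0.25).

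Bases outside cytosines were not used to select the reads. The comparison asks whether reads with several C were of poorer sequence or came from other LTR copies. Values of the classes were compared within each of the 8 libraries by exact exchange (two-sided permutation over 8 libraries, smallest possible p 0.00781), with adjustment over 8 measures. A base difference at A, G or T was carried by 43.8% ± 4.2 of reads with several C and 45.9% ± 2.45 of reads with 1 C (SD, n = 8 libraries), lower in 6 of 8 libraries (exact permutation p = 0.0469, adjusted p = 0.075). Reads without any base difference or gap outside cytosines were 672 of the 1251 and 2285 of the 4500. The difference of -2.16 points did not pass. With identical reads counted once, which removes most reads without a base difference from the 1 C class, it was -25.0 points and passed (exact permutation, adjusted p = 0.00893).

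C at reference thymines serves as a background, because those positions need no conversion. It was 0.104%, 0.211%, 0.229% and 0.184% in selected reads of wild type libraries at standard, heat shock, 1 day and 3 days, against 0.119%, 0.153%, 0.208% and 0.181% in reads with 1 C. In Dnmt2 mutant libraries it was 0.201%, 0.265%, 0.214% and 0.208%, against 0.2%, 0.164%, 0.2% and 0.108%. Selected reads were higher in 7 of 8 libraries, and the wild type standard library was the exception. The mean difference was 0.0355 ± 0.0454 percentage points (SD, n = 8 libraries, exact permutation p = 0.0469), which did not pass adjustment (adjusted p = 0.075). Without the wild type standard library it was 0.0427 points and passed (exact permutation, adjusted p = 0.0417). Leaving out the only library with the opposite sign puts p at its smallest possible value, so this pass follows from the choice of library. With identical reads counted once the mean difference was -0.0667 points (exact permutation, adjusted p = 0.0313).

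G at reference adenines was 0.384% in selected reads and 0.473% in reads with 1 C, lower in 6 of 8 libraries (difference -0.0893 ± 0.0930 points, SD, n = 8 libraries, exact permutation p = 0.0313, adjusted p = 0.075). It was higher in the Dnmt2 mutant standard and 1 day libraries, which belong to the first set, and the difference was -0.0288 points within that set and -0.15 within the second. For reads with 3 or more C the difference was -0.226 points and passed (exact permutation, adjusted p = 0.0417). A at reference guanines was 0.609% and 0.629%, lower in 4 of 8 libraries (exact permutation, adjusted p = 0.705). Base differences carried by under 0.5% of all reads numbered 23.5 per 100 reads in both classes (exact permutation, adjusted p = 1).

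Gaps separated the classes in every library. At reference A, G or T the alignment showed a gap at 0.157% ± 0.113 of positions in selected reads and 0.440% ± 0.146 in reads with 1 C (SD, n = 8 libraries). The difference was -0.283 points, with selected reads lower in 8 of 8 libraries and the smallest difference, -0.00779 points, in the Dnmt2 mutant standard library (exact permutation p = 0.00781, adjusted p = 0.0313). The length covered was 148.9 ± 0.119 bases against 148.6 ± 0.157 bases, higher in 8 of 8 (difference 0.351 bases, exact permutation p = 0.00781, adjusted p = 0.0313). A cytosine in a gap cannot count as C, so these measures are tied to the rule. Selected reads were called at 26.6 of 27 cytosines with 2 C and at 26.7 with 3 or more, against 26.6 with 1 C and 26.3 without C. Among reads called at all 27 cytosines the differences were -0.0405 points for gaps (adjusted permutation p = 0.113) and 0.0529 bases for length (0.0938), and neither passed.

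**Figure D4:**
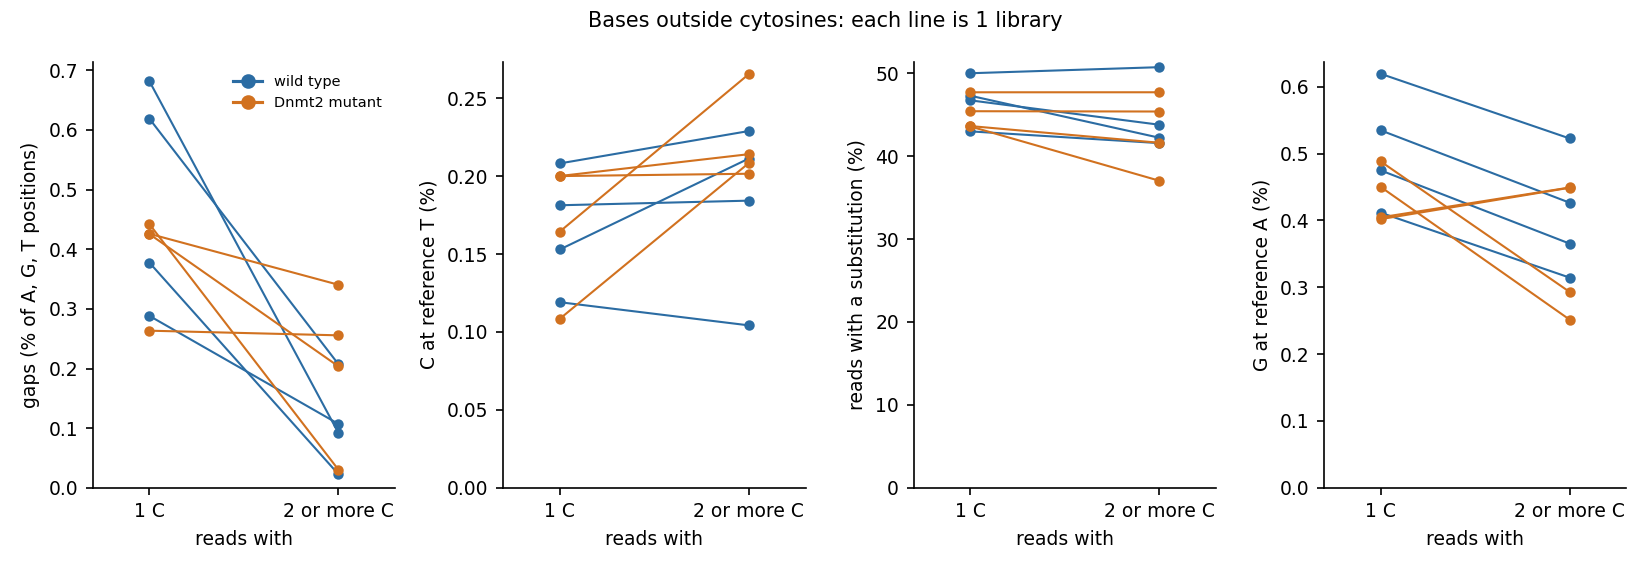
Gaps, C at reference thymines, reads with a base difference and G at reference adenines, all in percent, in reads with 1 C and reads with 2 or more C. Each line joins the classes of 1 library. Gaps fall in all 8 libraries, C at thymines is higher with several C in 7 of 8, and the other panels hold lines in both directions.

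Single base differences can mark LTR copies, but no read was assigned to a copy here. None of the common base differences separated the classes past the threshold when all reads were counted. Of the 28 substitutions carried by 0.5% or more of all reads, 0 (0%) passed the adjusted exact permutation test, and 3 had an unadjusted p under 0.05. The Cochran-Mantel-Haenszel test on reads also called 0, with 3 at an unadjusted p under 0.05. With identical reads counted once 15 passed. That count keeps 1108 of 1251 selected reads but 2439 of 4500 with 1 C, and removes most reads without a base difference from the latter. The 15 are therefore tied to the counting. For reads with 3 or more C, of which a library had 14 to 29, 12 passed, and most substitutions are at 0 in so small a class. With all reads counted, the mean was lower in reads with several C for 23 of the 28. In substitutions the first letter is the reference base, then its position and the base of the read. At least 1 of the 28 was carried by 32.5% ± 4.28 of selected reads and 34.8% ± 3.10 of reads with 1 C (SD, n = 8 libraries, exact permutation p = 0.0625, adjusted p = 0.0833).

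The 5 substitutions with the largest differences among those with 1 direction in at least 7 of 8 libraries were A69G, A37G, A111G, T9A and G83A, all with lower means in reads with several C. A69G was carried by 0.562% to 3.90% of selected reads and 2.39% to 5.71% of reads with 1 C over the libraries (mean difference -1.25 points, adjusted permutation p = 0.355). A37G differed by -1.02 points (adjusted permutation p = 0.219), T9A by -0.790 (0.219), A111G by -0.877 (0.401) and G83A by -0.283 points. In the Dnmt2 mutant 1 day library A69G, A37G and A111G ran the other way, as did T9A in the wild type 1 day library. A69G, A37G, A111G and T9A often shared reads, so they are not separate observations. Of 497 reads with A111G, 89.5% also carried A69G and 77.9% A37G, and of 309 reads with T9A 91.3% carried A69G. G83A shared 8 of its 200 reads with A69G.

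The read with C at all 27 cytosines came from the Dnmt2 mutant heat shock library. Outside its cytosines it differed from the reference by A127G and a gap at position 128. No other read had more than 5 C, so nothing lay between 5 and 27. With that read kept, the summed ratio of observed to expected pairs would be 1.32 in place of 1.10.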

How the data were processed

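Per the labels' protocols, bisulfite conversion of 5 µg genomic DNA used the EpiTect kit, and the LTR was amplified from 200 ng in 35 cycles and again from 50 ng in 15 cycles for pyrosequencing. The authors deposited aligned reads and, per read, a code for each cytosine (0 for C, 1 for T, NA otherwise) and a score, used only for a check. Aligner and read filters were not given in the sources used here. Codes matched the aligned bases in all 8 libraries.

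The members and lists were chosen with earlier results of these data known. Reads were counted per library with 95% Wilson intervals. Fisher's exact test compared reads of 2 libraries, Zelen's exact test (chosen after the data were seen, adjusted over 3 contrasts) compared stage changes between genotypes, and exact exchange over libraries compared read classes, all two-sided with Benjamini-Hochberg adjustment at 0.05. Expected numbers came from the levels of each library's cytosines. Named pairs were the 10 with most reads; named substitutions the 5 largest in 1 direction in at least 7 of 8 libraries; named cytosines the 5 largest shares and the 5 largest differences. Tests were tested on simulated data. Python 3.11.15, numpy 2.4.6, scipy 1.17.1 and statsmodels 0.14.6 were used. Alternatives changed the number of C, the comparison reads, identical reads, uncalled cytosines, homopolymers, LTR variants and libraries.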

Additional observations from a re-analysis of the deposited data

Results flagged for a closer look

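The ratio of observed to expected reads with 2 or more C was 1.28 in the wild type 3 days library, against 0.983 to 1.11 in the other 7 libraries, and its gap to the next library was wide for the range of the group (Dixon's test). The length covered by reads with several C was 148.6 bases in the Dnmt2 mutant heat shock library, the lowest of the 8, also apart by Dixon's test. Of 29 groups tested 2 stood out in this way, where chance flags about 1 in 20.

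The stage change in the share of reads with several C differed between the libraries of the labelled genotypes. These are tests on reads with 1 library per group, so they compare libraries, not genotypes. The Dnmt2 mutant change minus the wild type change was -3.74 percentage points after heat shock and -4.06 after 3 days (Zelen's exact test, adjusted p = 0.00405 and 0.00358). Among reads with at least 1 C the values were -7.56 and -11.7 points (adjusted exact p = 0.0335 and 0.00137). The calls were lost with identical reads counted once (adjusted exact p = 0.432 for both, and 1 and 0.994 among reads with C). They were also lost among reads that matched the reference outside cytosines (adjusted exact p = 0.172 for both, and 0.282 and 0.104 among reads with C). Each rests on 4 single libraries, and in each the genotype, the stage and the library set cannot be told apart.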

How the results depend on the processing

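All p-values here are adjusted, from the tests named in the report. With 3 or more C in place of 2 or more, the mean share was 1.09% of reads and 3.11% of reads with C. Genotype differences were then -0.823 (p = 0.0651, Fisher exact) after heat shock and -0.187 points (0.645) after 3 days, or -1.82 and -0.400 among reads with C. Wild type changes were 0.791 after heat shock, 0.521 after 1 day and 0.530 points after 3 days, with 1.86 and 1.56 after heat shock and 3 days among reads with C, and none passed. The Dnmt2 mutant change after 1 day turned to -0.213. The genotype difference of the 3 days change was -0.737, or -2.12 among reads with C, and no longer passed. G at adenines passed (-0.226), rare base differences turned to 7.20 per 100 reads, and 12 common substitutions passed. That class has 14 to 29 reads per library, so most substitutions are at 0 in it by its size.

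Counting identical reads once removes most fully converted reads by construction and raised the mean share to 16.8%, or 31.2% of reads with C. Genotype differences were -0.965 at standard, -4.05 after heat shock, 0.0663 after 1 day and -4.96 points after 3 days. Wild type changes were 3.61, 1.70 and 4.11 and Dnmt2 mutant changes 0.53 after heat shock and 0.118 after 3 days. Among reads with C the values were -1.84, -3.77 and -6.70 for genotypes at standard, heat shock and 3 days, 3.37 and 6.33 for wild type, and 1.44, 1.82 and 1.47 for the Dnmt2 mutant. Differences of the changes were -3.08, 1.03 and -3.99, and among reads with C -1.93 and -4.86 (heat shock and 3 days). No share comparison passed. Outside cytosines this count gave -25.0 points for reads with a base difference, -0.0667 for C at thymines, -0.365 for A at guanines, -0.396 for G at adenines, -18.4 for common and -15.6 per 100 reads for rare base differences, all past the threshold, and 15 common substitutions passed. The pair ratio was 0.869.

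Restricted to reads that match the reference outside cytosines, genotype differences were -0.148 at standard, -3.52 after heat shock and -3.31 after 3 days, and wild type changes 2.82, 1.66 and 2.87 points. Among reads with C they were -5.96 for genotypes after heat shock, and 4.44 and 8.08 for wild type. Differences of the changes were -3.38 and -3.17, or -6.44 and -10.2 among reads with C. None of these passed, on 8114 of 16434 reads. The genotype difference after 3 days among reads with C kept its call, at -9.74 points (p = 0.0360, Fisher exact). With reads called at all 27 cytosines the Dnmt2 mutant 1 day change was -0.0172, the wild type heat shock change among reads with C 5.41 (p = 0.0748, Fisher exact) and its difference between genotypes -8.16 (0.0715). Gaps (-0.0405) and length (0.0529) lost their calls, A at guanines turned to 0.0210 and rare base differences to 2.26, and A69G and A111G turned to 0.0507 and 0.0270 points.

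Without the cytosines with over 5% no call the mean share was 5.26%, or 17.9% of reads with C, and the wild type 1 day change among reads with C passed (5.05, p = 0.0243, Fisher exact). Against reads with 0 or 1 C, rare base differences passed (-3.15 per 100), and without homopolymers they turned to 0.309. With the fully retained read kept the pair ratio was 1.32. With the labels of the heat shock and 3 days pairs swapped the mean genotype difference was 1.57 points (3.51 among reads with C). Within the first set A at guanines was 0.0230 and rare base differences 0.455.

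Leaving out each library in turn gave -0.322 to -0.239 points for gaps (0.302 to 0.393 bases for length) where the call was lost. With 7 libraries the smallest possible p is larger, and whether it passes adjustment depends on how many measures reach it. C at thymines ranged from 0.0261 to 0.0427 points and passed without wild type standard, the only library with the opposite sign. A at guanines ranged from -0.0409 to 0.00172, above 0 without wild type heat shock, and rare base differences from -0.811 to 0.488 per 100 reads. The causes of the other changes were not tested. With 1 library per group and 109 to 205 selected reads in each, differences within the Wilson intervals were not detectable at this depth.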
